A study of Homo sapiens with 12 samples.

Results

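WB1 and D11 are Dicer1 (+/-) clones of TPC1, a line of human papillary thyroid carcinoma cells, and the transcriptome of WB1 was compared here with that of D11 across every gene. The comparison used the 3 WB1 and the 3 D11 RNA sequencing libraries, 6 of the 12 libraries in the series. The other libraries were 3 of the unmodified TPC1 line and 3 of TD5, another Dicer1 (+/-) clone, and they entered the fit for the spread between libraries and served as a reference level. WB1 and D11 carry deletions of 7 and 20 nucleotides in 1 DICER1 allele, both keep a wild-type allele, and both were made by transient transfection of a Cas9 plasmid and grown in the same serum-containing RPMI medium. Each line descends from 1 sorted cell, so that the effect of its deletion and any other difference that this cell carried cannot be told apart. The 3 libraries of a clone share that cell of origin, nothing in the labels says whether they came from separate cultures, and their spread may therefore be technical.

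Dicer1 is the ribonuclease that cuts precursor hairpins into mature microRNAs, which Argonaute proteins then use to repress matching messenger RNAs. Cells usually tolerate the loss of 1 copy better than the loss of both. Clones from a single tumor line can also differ from each other for reasons other than an engineered allele such as the state of the founding cell. The clones were made with a single guide RNA, printed here because both deletions arose at its site. It matched chr14:95115685-95115707 of GRCh38, within exon 11 of the 27 exons of the canonical DICER1 transcript, on the strand opposite to the gene. The guide is given 5′ to 3′ with the 3 bases of the PAM, the motif that Cas9 needs beside its target, in capitals.
DICER1 guide: gccgtgttgattgtgactcgTGG

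Values are scaled reads, meaning reads per gene after each library was brought to 20000000 reads, and they were fitted by limma as log2(x + 1), where x is the scaled reads divided by 20. The log2 difference is always WB1 minus D11, and it understates the change of genes with few reads. Calls required at least 1.5-fold on that scale and, after Benjamini-Hochberg adjustment over all tested genes, a p under 0.05. DICER1 had 977, 1051 and 1093 scaled reads in the D11 libraries. In WB1 it had 881, 939 and 815. All WB1 libraries lay below all D11 libraries, and the WB1 mean was 84.4% of the D11 mean. The log2 difference of -0.24 (standard error 0.10, 95% interval -0.45 to -0.03) did not pass the test across genes (adjusted p = 0.178). An exact two-sided permutation test of this gene gave p = 0.1, the smallest value that 3 against 3 libraries allow. Of the 20 tested genes of microRNA biogenesis and silencing, limma called 0, where it called 2.85% of all genes, and voom on estimated reads also called 0. An unadjusted p under 0.05 was found for 5 of the 20 (25.0% against 19.3% of all genes). AGO2, the Argonaute protein with slicer activity, had the largest difference among them at 3072 scaled reads in D11 and 2521 in WB1 (log2 difference -0.28, adjusted p = 0.0139), which is under 1.5-fold.

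An estimated 14579500 to 16794500 reads stood behind each D11 library and 16460500 to 17325500 behind each WB1 library, and 3 reads correspond to 3.46 to 4.12 scaled reads. The first principal component of the 6 libraries took 56.6% of their variance and separated the clones. Of the 8 thyroid markers, PAX8, a transcription factor of thyroid cells, was high in both clones, with means of 7820 scaled reads in D11 and 9330 in WB1, and made up nearly all of their summed level, which was 7865 to 8370 in D11 and 8689 to 10121 in WB1. TSHR, SLC5A5 and NKX2-1 were at 0 in all 6 libraries. The 6 epithelial markers summed to 17176 to 18680 scaled reads in D11 and 18108 to 18580 in WB1, largely through the keratins KRT8 (means 12265 and 12490) and KRT18 (5456 and 5579), while EPCAM and CDH1 did not exceed 3 reads. Of 7 fibroblast markers 4 stayed at or under 3 reads in every library, LUM and PDGFRB were called in opposite directions, and the sums were 168 to 206 in D11 and 238 to 355 in WB1. Of 7 immune markers 5 stayed at or under 3 reads, 1 was tested and not called, and the sums were 983 to 1133 in D11 and 1253 to 1518 in WB1. The 4 endothelial markers were too low to be tested. The part of these markers in the results was not tested.

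Of 16027 tested genes, 456 differed between the clones (2.85%). Of these, 315 were higher in WB1 (1.97% of those tested) and 141 were lower (0.880%). The count depended on the processing: fitted as log2(x + 4) it was 213, as log2(x + 0.1) 552, and by voom on estimated reads 564. The WB1 and D11 libraries did not overlap for any of the 456 called genes, whereas 26.8% of all tested genes had clones that did not overlap. Without the 1.5-fold minimum, 745 genes were higher (4.65%) and 548 were lower (3.42%). The median log2 difference over all tested genes was -0.002. Large changes lay mostly on one side: 121 genes were at least 2-fold higher in WB1 and 24 at least 2-fold lower, and at 4-fold the counts were 21 and 1. Protein-coding genes made up 402 of the called genes and long noncoding RNAs 41.

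**Figure D1:**
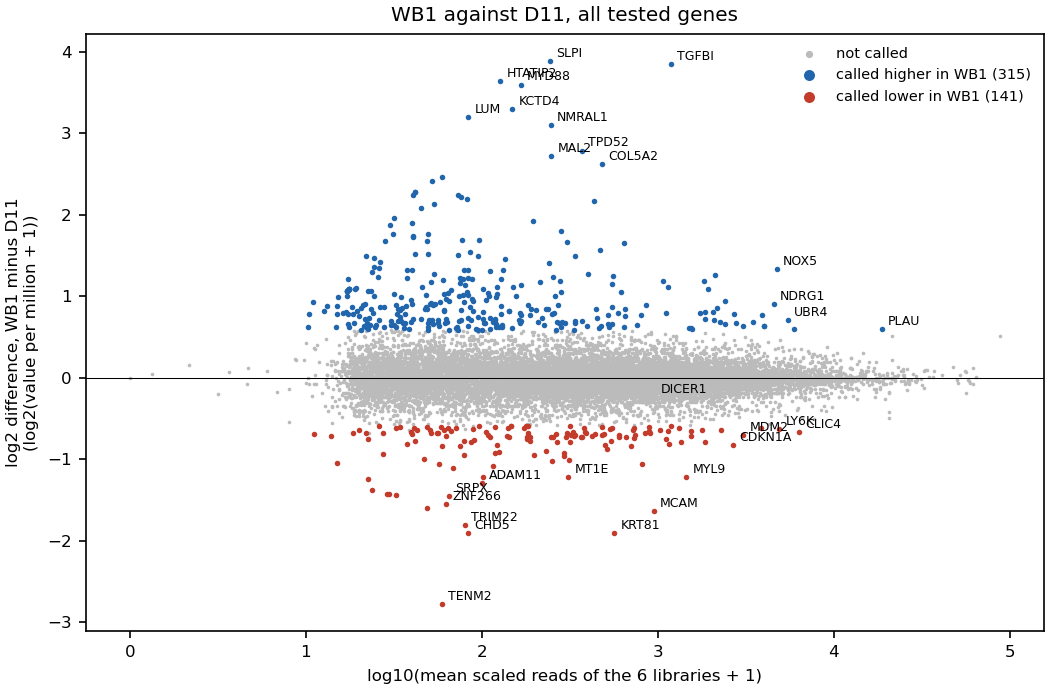
Each point is a tested gene, with the log10 of its mean scaled reads + 1 over the 6 libraries on the x axis and its log2 difference, WB1 minus D11, on the y axis. Blue points are the 315 genes called higher in WB1 and red points the 141 called lower; the cloud reaches further upwards, to 3.89 for SLPI, than downwards, to -2.77 for TENM2.

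The genes with the strongest upregulation in WB1 relative to D11 were SLPI, TGFBI, HTATIP2 and MYD88. SLPI, a secreted inhibitor of leukocyte proteases, had 11, 16 and 13 scaled reads in D11 and 497, 442 and 483 in WB1. Its mean was 13.3 ± 2.52 (SD, n = 3) in D11 and 474 ± 28.6 in WB1, a ratio of 35.5 and a log2 difference of 3.89 (standard error 0.10, adjusted p = 7.10e-14). TGFBI, an extracellular matrix protein induced by TGF-beta, had 150, 137 and 123 scaled reads in D11 and 2268, 2065 and 2389 in WB1. This was the most abundant gene among the 10 with the largest increases, with a ratio of means of 16.4 (log2 difference 3.85, standard error 0.07, adjusted p = 4.17e-16). MYD88, the adaptor that links Toll-like and interleukin-1 receptors to NF-kB, had 7, 5 and 13 scaled reads in D11 and 355, 280 and 333 in WB1 (log2 difference 3.60, adjusted p = 2.41e-12). D11 was thus nearly without transcripts of this adaptor. Of 23 tested genes of the NF-kB pathway and its targets, 0 were called by limma or voom, where limma called 2.85% of all genes. By the adjusted p alone 2 were higher (8.70% against 4.65% of all genes). An unadjusted p under 0.05 was found for 5 (21.7% against 19.3%), and the median log2 difference was 0.01. A link between MYD88 and this list was not tested.

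HTATIP2 and KCTD4 followed, at 3.64 and 3.30 on the log2 scale. NMRAL1, an NADPH-sensing protein, had 36, 52 and 22 scaled reads in D11 and 450, 418 and 498 in WB1 (log2 difference 3.10). TPD52 had 83, 58 and 99 in D11 and 682, 665 and 636 in WB1, and MAL2, a membrane protein of apical transport, had 51, 45 and 54 against 491, 484 and 359. COL5A2, a chain of type V collagen, had 135, 97 and 131 scaled reads in D11 and 746, 923 and 852 in WB1. For these genes the clones were separated by 6.94-fold or more between their means, and no D11 library came near a WB1 library.

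In the other direction the differences were smaller. TENM2, a teneurin adhesion protein, had 101, 120 and 129 scaled reads in D11 and 0 in each WB1 library, so that D11 was at least 32.9-fold higher when WB1 was set to 3 reads per library. TENM2 was also low in TPC1, with 6 scaled reads in each library, and in TD5, with 2, 3 and 3, so that D11 stood apart from the other lines. CHD5, a chromatin remodeler, had 156, 141 and 126 scaled reads in D11 and 24, 16 and 30 in WB1 (log2 difference -1.90, standard error 0.14, adjusted p = 6.41e-08). KRT81, a hair keratin, had 894, 935 and 882 in D11 and 203, 274 and 212 in WB1 (log2 difference -1.90, standard error 0.13, adjusted p = 2.27e-08). Reads of KRT81 may be shared with near-identical keratins, and KRT86 lies on the opposite strand of the same stretch. MCAM, an adhesion molecule of the immunoglobulin family, had 1497, 1385 and 1426 scaled reads in D11 and 518, 367 and 484 in WB1 (log2 difference -1.63, adjusted p = 8.83e-08). The remaining 6 of the 10 largest decreases were TRIM22, ZNF266, SRPX, ADAM11, MT1E and MYL9, with log2 differences from -1.81 to -1.22. MYL9, a regulatory light chain of myosin II, was the most abundant of them, at 2041 ± 92.4 scaled reads in D11 and 871 ± 100.9 in WB1.

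**Figure D2:**
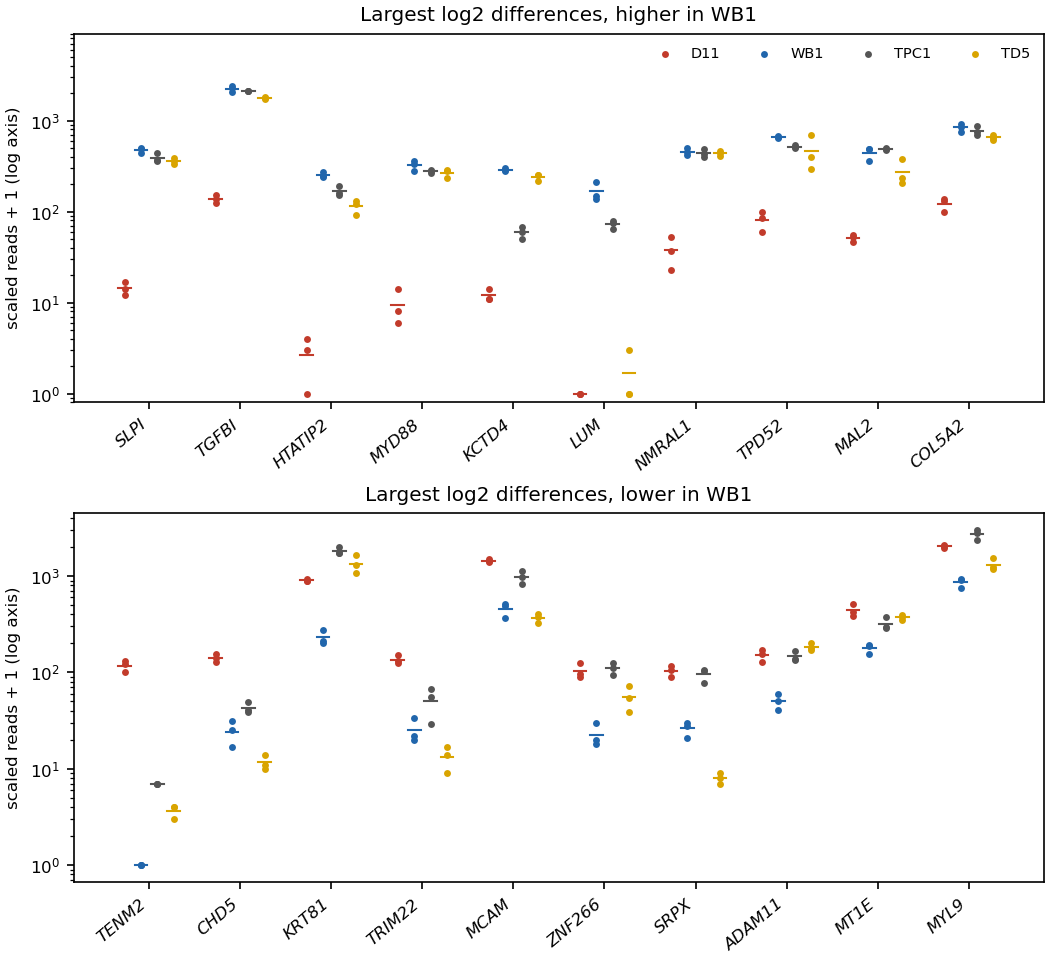
Scaled reads + 1 on a log axis for the 10 genes with the largest log2 differences in each direction, with 1 point per library, a bar at each mean and a color per line. In the upper panel the D11 points lie below all others for every gene but LUM, whose TD5 points are also near 0; in the lower panel WB1 lies below D11 for every gene, and TPC1 and TD5 vary in position.

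Ranked by level rather than by ratio, other genes came first. PLAU, the urokinase plasminogen activator, had 14853, 14523 and 15180 scaled reads in D11 and 23801, 21521 and 22458 in WB1, a log2 difference of 0.60. It sat close to the 1.5-fold minimum and was no longer called without WB1 replicate 1 (log2 difference 0.57). NOX5, a calcium-dependent NADPH oxidase, rose from 2646 ± 358.5 to 6848 ± 1871 scaled reads, but the TPC1 libraries alone ranged from 1278 to 4008. NDRG1, a stress-responsive gene, had 3280, 2664 and 3468 in D11 and 4970, 5390 and 7564 in WB1 (log2 difference 0.91, adjusted p = 0.00127). Downwards, CLIC4, an intracellular chloride channel protein, had 7658, 7156 and 8696 in D11 and 4501, 5603 and 4754 in WB1. Its log2 difference was -0.66, and it was not called without D11 replicate 3 (-0.58). LY6K, a cell surface antigen, had 6167, 6001 and 5667 in D11 and 3686, 3819 and 4015 in WB1 (log2 difference -0.63, adjusted p = 2.46e-05).

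The TPC1 libraries show which clone departed from the parental level, as a description, since all lines share 1 fit. Of the 315 genes higher in WB1, 161 had a TPC1 mean nearer to WB1 and 154 one nearer to D11. Among the 141 lower genes these counts were 67 and 74. Over all called genes, neither clone was therefore the closer one to TPC1. TD5 lay nearer to WB1 for 199 of the 315 and for 99 of the 141. Among the 21 genes at least 4-fold higher in WB1, however, TPC1 lay nearer to WB1 for 18 and nearer to D11 for 3, and TD5 lay nearer to WB1 for 16. SLPI had 371, 357 and 440 scaled reads in TPC1, TGFBI 2113, 2130 and 2099, and MYD88 266, 287 and 281, all close to WB1. KCTD4 was an exception, with 59, 49 and 67 scaled reads in TPC1, above the 10, 10 and 13 of D11 and below the 275, 297 and 282 of WB1. For the 121 genes at least 2-fold higher in WB1, TPC1 lay nearer to WB1 for 77. For the 24 genes at least 2-fold lower in WB1, TPC1 lay nearer to D11 for 15, but TD5 lay nearer to WB1 for 17.

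In 13 genes, transcripts were at or below 3 reads in every D11 library and at 20 scaled reads or more in every WB1 library, and 10 of them code for proteins. In the opposite arrangement TENM2 stood alone, and it was low in TPC1 and TD5 as well. All 13 were called, which their selection on the same values made nearly certain. In TPC1, 12 of them were above 3 reads in every library, the exception being C6orf141. LUM, the small collagen-binding proteoglycan lumican, had 0 scaled reads in each D11 library and 138, 212 and 148 in WB1, at least 43.9-fold higher with D11 set to 3 reads per library. TPC1 had 78, 73 and 63 scaled reads of LUM and TD5 2, 0 and 0, so that its transcripts were lost or nearly so in both D11 and TD5. HTATIP2, an oxidoreductase-like protein first found as a partner of the viral activator Tat, had 2, 3 and 0 scaled reads in D11 and 239, 269 and 245 in WB1. With 3 reads in D11 against 636 in WB1, the depth-corrected ratio was 199.7 (95% exact interval 68.0 to 970.8, counting error only). TRIM61, of the tripartite motif family, had 2, 2 and 3 scaled reads in D11 and 87, 109 and 104 in WB1. STK33, a serine/threonine kinase, had 0, 2 and 0 against 89, 69 and 84, and AC106872.5 had 0, 2 and 0 against 71, 88 and 83. STK33 had 110, 76 and 99 in TPC1 and 109, 90 and 123 in TD5, so that D11 stood apart from the 3 other lines. DSC2, a desmosomal cadherin, and GALC, the lysosomal galactosylceramidase, were near 0 in D11 and also low in TD5. DSC2 had 59, 55 and 57 scaled reads in WB1 and 8, 0 and 4 in TD5, and GALC had 46, 38 and 48 in WB1 and 0 in each TD5 library. EPHA5, an Eph receptor tyrosine kinase, had 2, 2 and 3 scaled reads in the D11 libraries against 67, 48 and 42 in WB1. TPC1 had 90, 98 and 89.

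The window upstream of HTATIP2 is shown because this gene had the largest level among the silent genes of D11. It covers the 250 bases before the RefSeq start site on GRCh38.p14, chr11:20363464-20363713 on the plus strand, with CG dinucleotides, the sites of DNA methylation, in capitals. It holds 15 of them, and 42.9% of 35116 RefSeq promoter windows of the same length hold as many or more, against a median of 11.0. Methylation was not measured, and no statement on it follows from these letters.
HTATIP2 upstream window: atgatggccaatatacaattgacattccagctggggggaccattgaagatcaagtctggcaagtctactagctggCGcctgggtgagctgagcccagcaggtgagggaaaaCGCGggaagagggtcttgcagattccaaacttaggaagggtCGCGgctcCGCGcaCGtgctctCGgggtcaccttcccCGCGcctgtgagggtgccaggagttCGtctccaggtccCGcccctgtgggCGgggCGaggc

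Genes of S phase were lower in WB1 where they passed the test. All 35 tested genes of S phase and DNA replication had a log2 difference below 0, against 50.5% of all tested genes, and the median of the list was -0.37. Of these, 6 were called lower, 17.1% of the list against 0.880% of all genes, and 0 were called higher. Without the 1.5-fold minimum 23 were lower (65.7% against 3.42% of all genes). E2F2, an activator of S phase genes, had 442, 360 and 374 scaled reads in D11 and 196, 185 and 209 in WB1 (log2 difference -0.92, adjusted p = 1.21e-05). CCNE2, the cyclin E2 that drives entry into S phase, had 1313, 1549 and 1600 against 847, 935 and 741 (log2 difference -0.81, adjusted p = 1.55e-04). CDC6, which loads the replicative helicase, had 1737, 1781 and 1622 against 1035, 937 and 994, and E2F1 had 697, 689 and 676 against 409, 392 and 385. No WB1 library reached a D11 library for any of these genes. MCM10, which activates the helicase, and UHRF1, which maintains DNA methylation at replication forks, were the other called members, at -0.67 and -0.59. Subunits of the MCM helicase itself such as MCM5 (-0.43) and MCM2 (-0.38) and the sliding clamp PCNA (-0.38) were under 1.5-fold. TPC1 lay between the clones: the median of the list was 0.16 for D11 minus TPC1 and -0.21 for WB1 minus TPC1, where all tested genes had medians of 0.05 and 0.06.

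Genes of G2/M and mitosis were not called. Of 32 tested, 30 had log2 differences above 0, the median was 0.19, and limma and voom each called 0. Without the minimum change 6 passed the adjusted p, all higher in WB1 (18.8% against 4.65% of all genes), and 15 had an unadjusted p under 0.05 (46.9% against 19.3%). PLK1, a kinase of mitotic entry, had means of 3135 scaled reads in D11 and 4204 in WB1 (log2 difference 0.42, adjusted p = 0.00479). KIF20A, a kinesin of cytokinesis, had means of 2811 and 3706 (0.40, adjusted p = 4.34e-04), and CCNB1, cyclin B1, had 4926 and 6247 (0.34, adjusted p = 0.00127). In bulk RNA, a different share of cells in a phase and a different amount of RNA per cell cannot be told apart. By BrdU staining and flow cytometry, the paper observed no differences in proliferation between TPC1 and the clones D11, WB1 and TD5. A link between that assay and these genes was not tested.

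E2F factors bind GC-rich sites near the start of many S phase genes, and the upstream windows of E2F1 and E2F2 are shown because both were called lower. The motif TTT, then C or G at each of 2 positions, then CGC was searched on both strands, that is TTTCCCGC, TTTCGCGC, TTTGCCGC and TTTGGCGC with their complements. The search did not cover all 35 tested members of the list or all 6 called ones. Of the 29 list members whose RefSeq windows were searched, 14 held it in at least 1 window (48.3%). Of all windows, 2.79% held it. The first share counts genes, some with several windows, and the second counts single windows, so the shares cannot be compared directly. Of the 5 called members searched, 3 held it. Matches are in capitals in the 250 bases before the start sites, chr20:33686386-33686635 and chr1:23531234-23531483 of GRCh38.p14, both on the minus strand. A match describes these letters only, and binding was not measured.
E2F1 upstream window: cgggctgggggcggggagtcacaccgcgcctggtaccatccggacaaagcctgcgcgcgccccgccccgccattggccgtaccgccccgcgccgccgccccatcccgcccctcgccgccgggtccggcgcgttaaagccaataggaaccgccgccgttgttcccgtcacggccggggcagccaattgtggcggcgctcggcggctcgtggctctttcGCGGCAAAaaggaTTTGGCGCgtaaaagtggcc
E2F2 upstream window: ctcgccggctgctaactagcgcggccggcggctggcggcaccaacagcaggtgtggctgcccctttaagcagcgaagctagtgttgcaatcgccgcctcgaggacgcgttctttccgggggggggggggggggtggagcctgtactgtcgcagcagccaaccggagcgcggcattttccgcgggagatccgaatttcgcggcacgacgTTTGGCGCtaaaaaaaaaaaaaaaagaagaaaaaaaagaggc

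Genes of the DNA damage response and apoptosis that were called were lower in WB1 as well. Of 31 tested members of this list, 27 had log2 differences below 0, the median was -0.34, and 6 were called lower (19.4% against 0.880% of all genes) and 0 higher. CDKN1A, which encodes the cell cycle inhibitor p21, had 3622, 3458 and 3197 scaled reads in D11 and 2351, 1736 and 1760 in WB1 (log2 difference -0.82, standard error 0.10, adjusted p = 4.68e-05). MDM2, a ubiquitin ligase induced by DNA damage, had 3471, 3945 and 3966 in D11 and 2620, 2410 and 1984 in WB1 (log2 difference -0.70, adjusted p = 6.40e-04). For both genes the clones did not overlap. BTG2, an antiproliferative gene, had 468, 395 and 412 against 205, 185 and 211, and SESN1, a stress-induced regulator of mTOR signaling, had 390, 386 and 428 against 264, 218 and 236. The proapoptotic BBC3 was called as well, at -0.63. Relative to TPC1 the list had a median of 0.25 in D11 and -0.02 in WB1, and MDM2 had 2683, 2091 and 2173 scaled reads in TPC1, near the WB1 values. CDKN1A in TPC1 (2936, 2354 and 2806) lay between the clones.

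**Figure D3:**
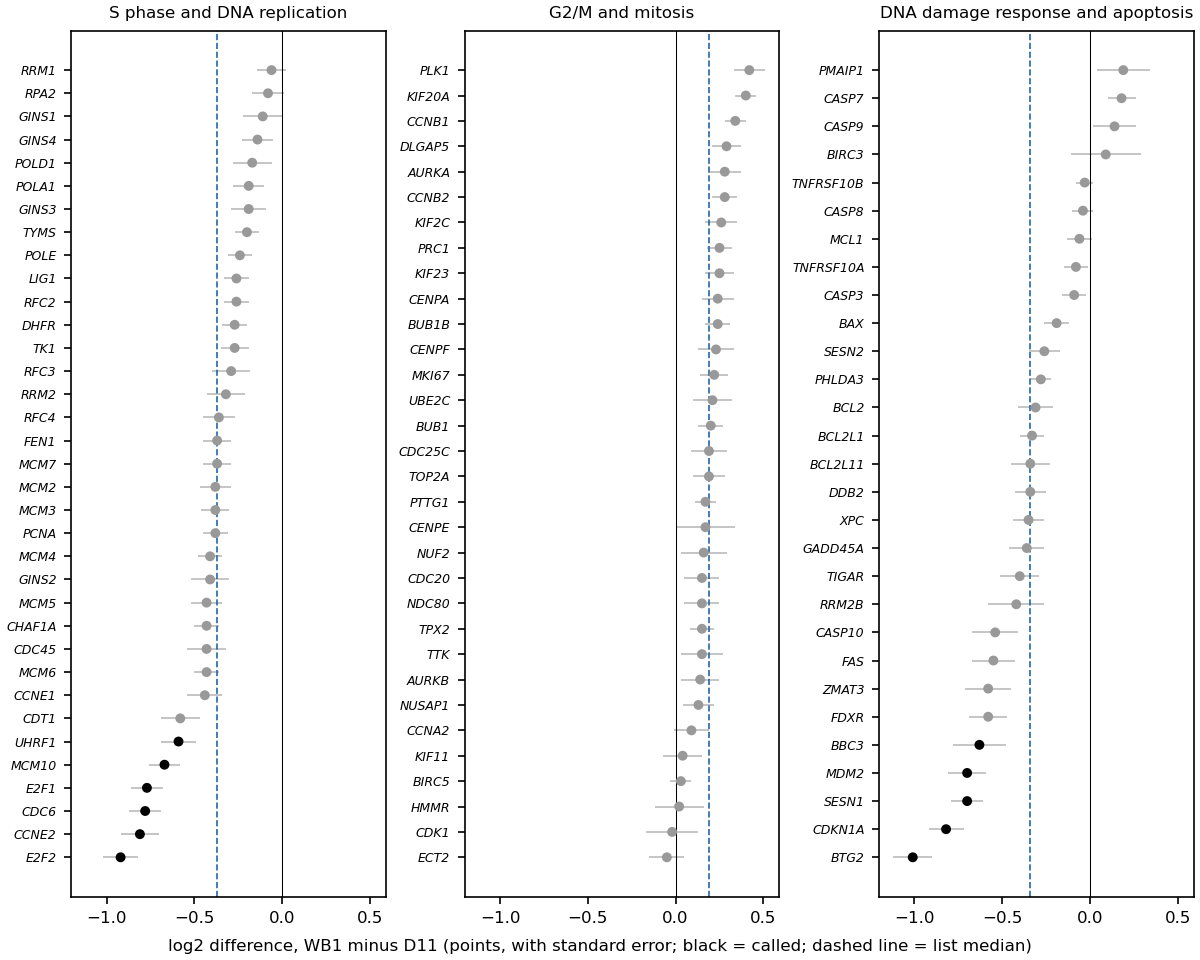
Log2 difference, WB1 minus D11, of tested members of the lists for S phase, G2/M, and DNA damage response and apoptosis (genes not reported here are left out of the third panel), each with its standard error and with called genes in black and the list median as a dashed line. The medians are -0.37, 0.19 and -0.34, all 35 S phase genes lie left of 0, and 30 of 32 G2/M genes lie right of it.

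Matrix genes were called in both directions, most of them higher in WB1. Of 44 tested collagens and matrix proteins, 10 were called higher and 2 lower, 27.3% against 2.85% of all genes, with a median log2 difference of 0.23. Beside TGFBI, LUM and COL5A2, the anchoring fibril collagen COL7A1 had 146, 134 and 127 scaled reads in D11 and 522, 471 and 437 in WB1 (log2 difference 1.67, adjusted p = 1.35e-07). TNC, the matrix glycoprotein tenascin C, had means of 1636 and 3175, and NID2, a basement membrane protein, of 716.3 and 1577. COL13A1 and the matricellular CTGF were the members called lower, at -0.69 and -0.64. CTGF is thus opposed to most of the called members, and without WB1 replicate 1 only 1 matrix gene was called lower.

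Matrix proteases and their inhibitors gave 7 higher (18.4% against 1.97% of all genes) and 0 lower of 38 tested. Without the minimum change 14 were higher (36.8% against 4.65% of all genes) and 2 lower (5.26% against 3.42%). SERPINE2, an inhibitor of thrombin and urokinase, had 1578, 1420 and 1500 scaled reads in D11 and 2770, 2552 and 2621 in WB1 (log2 difference 0.81, adjusted p = 2.38e-06). ADAM12, a membrane protease, had 531, 426 and 483 against 827, 795 and 854, and the gelatinase MMP2 had means of 1862 and 2934. The stromelysin MMP3 had few reads, 13, 10 and 11 in D11 and 65, 30 and 24 in WB1. SERPINE2 was the single inhibitor among the 7 called members, and 4 members were called without WB1 replicate 3. Of 31 cadherins, junction and EMT genes, 6 were higher (19.4% against 1.97%) and 0 lower. By the adjusted p alone 8 were higher (25.8% against 4.65% of all genes) and 4 lower (12.9% against 3.42%). CDH6, a cadherin of kidney and thyroid tumors, had 219, 193 and 268 scaled reads in D11 and 649, 649 and 834 in WB1 (log2 difference 1.57, adjusted p = 5.41e-05). PKP2, a desmosomal plaque protein, had 38, 52 and 32 against 164, 139 and 143. CDH3, CLDN16 and NCAM1 were higher too, by 1.00, 0.80 and 0.66.

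Among 21 integrin and laminin chains, 2 were called higher (9.52% against 1.97% of all genes) and 1 lower (4.76% against 0.880%). ITGA2, a collagen receptor subunit, was higher, with 1637, 1537 and 1541 scaled reads in D11 and 2729, 2349 and 2684 in WB1. ITGA11, the member called lower, was close to the threshold (log2 difference -0.60, adjusted p = 0.0285) and was not called without D11 replicate 1 (-0.58), D11 replicate 3 (-0.52), WB1 replicate 1 (-0.42) or WB1 replicate 2 (-0.61). Keratins were represented by KRT81, the single called member of 12 tested (8.33% against 0.880% of all genes called lower). Without D11 replicate 3, 2 members were lower.

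Interferon-stimulated genes were called in both directions. Of 37 tested, 7 were higher in WB1 (18.9% against 1.97% of all genes) and 2 lower (5.41% against 0.880%), and the median log2 difference was 0.24. IFI44L had 13, 18 and 15 scaled reads in D11 and 72, 96 and 77 in WB1 (log2 difference 1.52, adjusted p = 3.58e-05), and GBP2, a guanylate-binding protein, had 65, 54 and 47 against 144, 172 and 182. IFIT3 had means of 378.7 and 716.7. TRIM22, an antiviral ubiquitin ligase, went the other way with 149, 124 and 131 scaled reads in D11 and 33, 19 and 21 in WB1 (log2 difference -1.81, adjusted p = 4.71e-06), as did OAS3 at -0.68. Without WB1 replicate 1, 4 members instead of 7 were called higher. Of 18 genes of MHC antigen presentation 0 were called by limma or voom, where limma called 2.85% of all genes. An unadjusted p under 0.05 was found for 5 of the 18 (27.8% against 19.3% of all genes). The cytokine receptors IL13RA2, IL7R and IL1R1 were the 3 called members of 23 tested chemokines, cytokines and receptors, all higher (13.0% against 1.97%), at 1.12, 0.86 and 0.67. IL1R1 was not called without D11 replicate 2 (0.57) or WB1 replicate 1 (0.58).

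Of 37 tested genes of hypoxia and glycolysis, 6 were called higher in WB1 (16.2% against 1.97% of all genes) and 0 lower, with a median of 0.22. Abundant glycolytic enzymes were not among them: the log2 difference was 0.08 for GAPDH, 0.07 for ENO1 and 0.01 for LDHA. ANGPTL4, a secreted inhibitor of lipoprotein lipase, had 118, 120 and 99 scaled reads in D11 and 331, 455 and 563 in WB1 (log2 difference 1.80, adjusted p = 2.90e-06). PFKFB4, a regulator of glycolytic flux, had 334, 249 and 381 against 645, 699 and 1048, and ADM, the peptide adrenomedullin, had 70, 71 and 62 against 117, 128 and 157. VEGFA, NDRG1 and DDIT4 were the other called members. For ANGPTL4, PFKFB4, NDRG1 and ADM the highest library was WB1 replicate 3, and the WB1 libraries spread widely, although none overlapped with D11. TPC1 had 147, 227 and 133 scaled reads of ANGPTL4, near D11, and TD5 had 330, 324 and 413, near WB1.

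Growth factors and their receptors were called in both directions, 6 higher (12.2% against 1.97% of all genes) and 4 lower (8.16% against 0.880%) of 49 tested, with a median of -0.06. PDGFD, a ligand of the PDGF family, had 10, 11 and 21 scaled reads in D11 and 62, 66 and 65 in WB1 (log2 difference 1.32, adjusted p = 1.31e-05), while its receptor PDGFRB had 98, 95 and 135 against 37, 56 and 48 (-0.95, adjusted p = 0.00126). Ligand and receptor thus went opposite ways. The other members lower in WB1 were FGF1, GFRA1 and KITLG. Axon guidance genes gave 6 higher (12.5% against 1.97%) and 2 lower (4.17% against 0.880%) of 48. SLIT2 had 88, 97 and 103 scaled reads in D11 and 267, 233 and 211 in WB1 (log2 difference 1.14, adjusted p = 2.38e-06), whereas ROBO3 and ROBO4, of the family of Slit receptors, were lower at -0.62 and -0.73. Without WB1 replicate 2 only 1 member of the axon guidance list was called lower. EPHB2 and SEMA3A were higher, by 1.01 and 0.90.

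In the Wnt list the stem cell receptor LGR5 was higher (364, 420 and 402 scaled reads against 739, 925 and 856) and the secreted inhibitor DKK1 lower (401, 399 and 412 against 207, 265 and 208). These were the 2 called genes of 32, 3.12% in each direction against 1.97% and 0.880% of all genes. Without WB1 replicate 1 the count of higher members was 2, and without WB1 replicate 3 the count of lower members was 2. In the TGF-beta list INHBA and FSTL3 were higher and GDF15 lower of 40 tested (7.50% in all against 2.85%), but FSTL3 was not called without D11 replicate 1 (0.58). EGR1, an immediate early transcription factor, had 337, 265 and 427 scaled reads in D11 and 140, 189 and 143 in WB1, but 23, 35 and 25 in TPC1 (log2 difference WB1 minus D11 -1.02, adjusted p = 0.00379). Both clones were thus far above TPC1 for this gene. It was the single called member of 32 genes of MAPK output (3.12%, near the 2.85% of all genes). A higher member was called without TPC1 replicate 1 or 2, WB1 replicate 2 or any 1 TD5 library. MT1E, a metallothionein, had 508, 385 and 428 against 155, 185 and 190, and AKR1C3, an aldo-keto reductase, had 439, 464 and 471 against 708, 1010 and 824. These were the called members of 27 NRF2 targets and metallothioneins, 3.70% in each direction against 1.97% and 0.880% of all genes. Without D11 replicate 1 or WB1 replicate 1, 2 members were higher.

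Zinc finger genes gave 9 higher (2.62% against 1.97% of all genes) and 10 lower (2.92% against 0.880%) of 343 tested, with 203 members below 0 and a median of -0.03. ZNF431 had 33, 24 and 21 scaled reads in D11 and 118, 138 and 126 in WB1, and ZNF736 had 44, 47 and 58 against 5, 8 and 5. Of 191 solute carriers 8 were higher (4.19% against 1.97%) and 5 lower (2.62% against 0.880%). KCNK3, an acid-sensitive potassium channel, had 1238, 1241 and 1145 against 2096, 2808 and 2982. It was the most abundant of the 3 called channel genes of 38, all higher (7.89% against 1.97%). Long intergenic RNAs gave 4 higher of 117 (3.42% against 1.97%), of which 1 was called without D11 replicate 2, and lower members were called without WB1 replicate 1 (1 gene), WB1 replicate 2 (2 genes) or TD5 replicate 3 (1 gene). No member was called by limma in the lists of Notch signaling (20 tested), cholesterol and fatty acid synthesis (38), ribosomal proteins (77), mitochondrially encoded genes (15) and canonical histones (15). By the adjusted p alone, without the minimum change, the first of these had 2 genes higher, the ribosomal proteins had 2 lower, and the other 3 lists had 0. The counts at an unadjusted p under 0.05 were 8, 3, 2, 0 and 1 in the order given. Against 19.3% of all genes, this share was higher in the Notch list (8 of 20) and lower in each of the other lists. The lists thus departed from the background in opposite directions. Voom called 0 in each, and 1 histone gene was called without WB1 replicate 1.

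**Figure D4:**
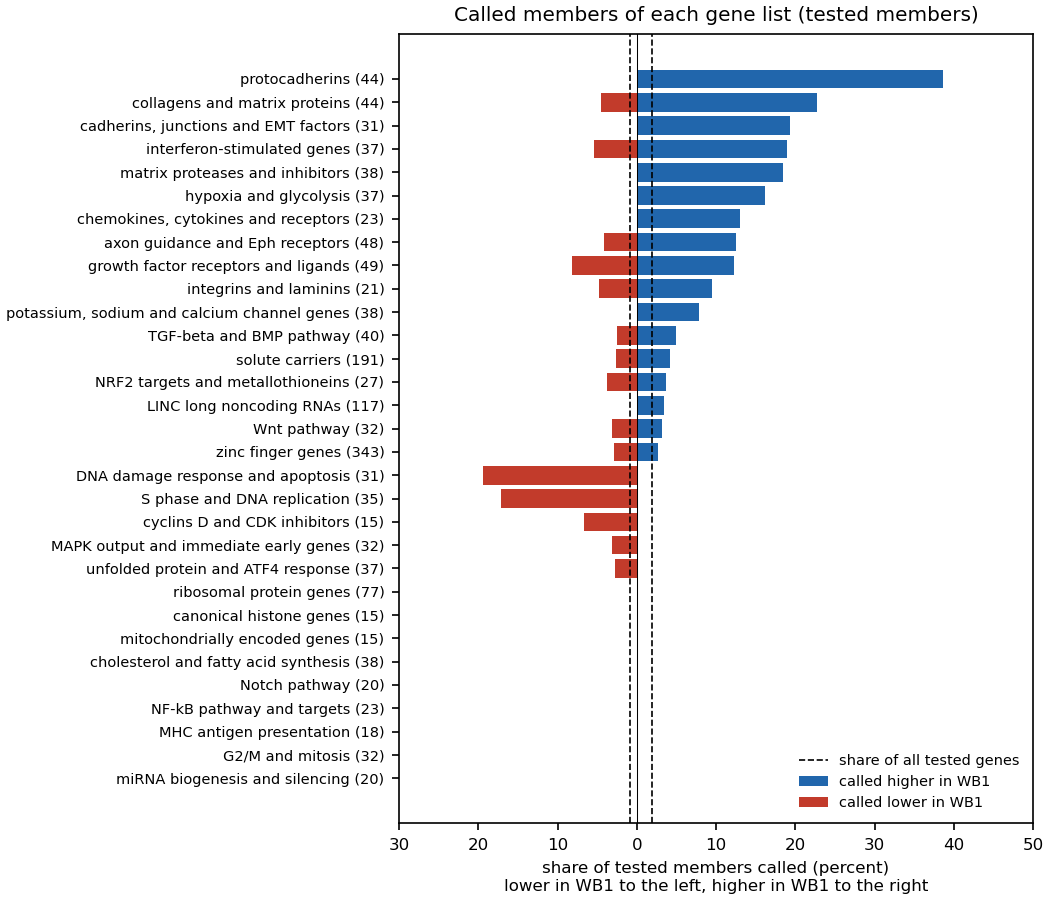
Bars give the share of tested members of each list called higher (right, blue) or lower (left, red) in WB1, in percent, with the number of tested members in brackets and the shares of all tested genes, 1.97% and 0.880%, as dashed lines. Protocadherins reach 38.6%, largely through reads shared within the alpha cluster. Most of the called protocadherins passed the filter on low values only through WB1, where they are high, so their share cannot be compared with the dashed lines. The S phase list and the DNA damage list have bars to the left and none to the right.

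The genes measured by RT-qPCR in the study had been picked for differences from TPC1 and are no independent evidence here. Of the 8 tested, EPHA5 and LINC01234 were higher in WB1 than in D11 (25.0% of the list against 1.97% of all genes). LINC01234 had 16, 5 and 7 scaled reads in D11 and 25, 21 and 33 in WB1, and it was not called without D11 replicate 2 (0.56), D11 replicate 3 (0.62) or WB1 replicate 3 (0.57). CASP10, an initiator caspase, had 9, 11 and 16 scaled reads in D11 and 3, 0 and 3 in WB1. Its log2 difference of -0.54 (adjusted p = 0.0168) was under the minimum, which the pseudocount makes hard to reach at so few reads. It was called without D11 replicate 1 (-0.61), with a pseudocount of 0.1 and with voom (-2.77). PNMA2, ICAM1, SMIM10, ZNF28, ZNF468 and PPP1R3C had at most 8 scaled reads in any library of either clone. The reference genes NEDD8 and TTC1 differed by -0.01 (95% interval -0.14 to 0.12) and 0.05 (-0.10 to 0.20).

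Called genes that neighbor each other showed whether a difference covered a stretch of the genome. No whole chromosome was shifted, since the medians of 24 chromosomes lay between -0.03 and 0.02. There were 9 runs of at least 3 neighboring tested genes called in the same direction. Several, such as those of MDM2 and TM4SF19, hold genes that overlap each other and may share reads, so that 9 is not a count of separate multigene stretches. The clearest run lay on chromosome 1 between positions 19074510 and 19260128 of GRCh38, where UBR4, AL035413.1, EMC1 and MRTO4 were all higher in WB1. EMC1, a subunit of the ER membrane complex, had 1106, 1107 and 1097 scaled reads in D11 against 2605, 2440 and 2584 in WB1. TPC1 had 3125, 3091 and 2973. The D11 mean was 43.4% of the WB1 mean and 36.0% of the TPC1 mean. MRTO4, a ribosome assembly factor, had 1570, 1632 and 1430 in D11 and 3084, 2578 and 2817 in WB1, a level of 54.6% in D11. UBR4, a large ubiquitin ligase, had 4201, 4441 and 3844 against 6912, 7365 and 6221, a level of 60.9%. Relative to TPC1 the D11 mean was 46.1% for MRTO4 and 72.3% for UBR4. The WB1 mean of UBR4 (6833) lay above its TPC1 mean (5755). The noncoding AL035413.1, which overlaps EMC1 on the other strand, had 81, 86 and 93 against 213, 194 and 231. D11 was thus lowest of all 4 lines for each gene of the run. On either side the difference between WB1 and D11 ended. The tested genes IFFO2 and ALDH4A1 before the run had D11 means of 98.7% and 97.8% of WB1. After it, AKR7A2, PQLC2 and CAPZB had 98.8%, 98.1% and 98.5%. Relative to TPC1, the D11 means of these genes were 95.9%, 74.7%, 83.0%, 78.5% and 86.4% in the same order. By that reference UBR4, at 72.3%, was close to ALDH4A1. AL137127.1, which overlaps the end of UBR4, had a D11 mean of 63.2% of WB1 and just missed the minimum change (log2 difference 0.58, adjusted p = 0.0107). The copy number of the stretch was not measured.

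**Figure D5:**
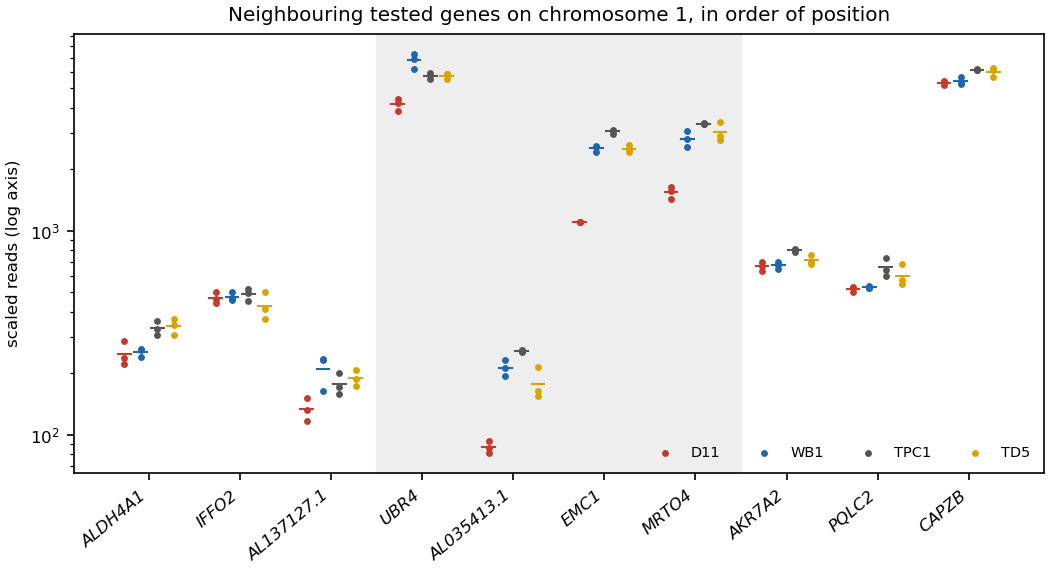
Scaled reads on a log axis for 10 neighboring tested genes of chromosome 1 in order of position, with 1 point per library, a bar at each mean and a color per line; the called run is shaded. D11 lies below the other lines within the shaded run and beside WB1 in IFFO2, ALDH4A1, AKR7A2, PQLC2 and CAPZB.

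A run on chromosome 8 held TNFRSF11B, MAL2 with a transcript antisense to it, and NOV. TNFRSF11B, the decoy receptor osteoprotegerin, had 109, 135 and 124 scaled reads in D11 and 347, 282 and 282 in WB1 (log2 difference 1.18). NOV, a matricellular protein, had 70, 64 and 75 against 387, 298 and 279 (1.92), but 131, 146 and 110 in TPC1. The antisense transcript had 13, 18 and 10 against 144, 156 and 111, and whether its reads came from MAL2 cannot be told, since the strand setting of the counting is not given in the sources used here. Neighbors on both sides such as EXT1 (-0.06) and TAF2 (-0.06) were not called. The run on chromosome 17 consisted of FGF11 and TMEM102 with AC113189.2 and AC113189.4, which overlap them. The longest run, 15 protocadherin alpha genes on chromosome 5, stands for a single set of reads, because these genes share their last exons. From PCDHA5 to PCDHA9 every gene had 2, 3 and 5 scaled reads in D11. PCDHA9 had 32, 26 and 29 in WB1, and the others differed from it by at most 1. PCDHAC2 had 5, 4 and 5 in D11 and 52, 37 and 50 in WB1 (log2 difference 1.42, adjusted p = 7.18e-07). The cluster was thus higher in WB1 but at low levels, and without any 1 WB1 library 6 protocadherins instead of 17 were called, most others no longer passing the filter on low values.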

How the data were processed

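Library titles assigned 3 libraries each to TPC1, D11, WB1 and TD5. The members and gene lists were chosen with earlier results of these data known.

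The authors prepared stranded mRNA libraries, mapped paired-end reads to GRCh38 with STAR 2.5.3a, counted them on Ensembl release 90 genes with HTSeq 0.9.1 (versions from the submitters' processing notes; strand and overlap settings are not given in the sources used here) and normalized each library to a common total of 20000000 reads. The deposited values were treated as a score, because they are scaled reads rounded up to whole numbers, summing to between 20009833 and 20014191 per library. A test for raw counts was therefore not the one used. The size of 1 read was estimated from the steps between values.

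Each library was scaled to its own sum so that x is scaled reads divided by 20, and log2(x + 1) was fitted with limma 3.58.1 (R 4.3.3) with a variance trend and a mean per line over 12 libraries, for the 16027 of 58302 genes with x of at least 1 in at least 3 libraries. The fit was tested on simulated data. Gene positions came from GENCODE release 44, which placed 99.1% of tested genes; values of overlapping genes were not independent. Genes were named by rule: DICER1, the RT-qPCR genes, the 10 called protein-coding genes with the largest log2 difference in each direction, given x of at least 5 in the higher clone and no overlap, the 5 with the largest difference in level in each direction, up to 4 called members of each list, the 5 highest genes at the floor of 3 reads per direction and the 3 longest runs. AGO2, PLK1, KIF20A, CCNB1, further list members and the neighbors of runs were chosen after their values were seen.

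Alternatives covered the filter, pseudocount, thresholds, scaling, voom on estimated reads, GC content, length, a replicate block and leaving out each library. Intervals cover counting error only where reads are compared. Python 3.11.15, pandas 2.3.3 and scipy 1.17.1 were used. Some genes are not reported here.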

Additional observations from a re-analysis of the deposited data

How the results depend on the processing

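Of the 315 genes higher and 141 lower in WB1, 142 and 71 were called with a pseudocount of 4. A filter at x of 5 (scaled reads divided by 20), which tests fewer genes, gave 177 higher genes and 103 lower. Without a minimum change the counts were 745 and 548, and at 2-fold 121 and 24. Leaving out 1 library gave 267 to 318 higher and 124 to 147 lower genes, with the lowest counts without WB1 replicate 3 and without D11 replicate 2. Of the 456 genes, median-of-ratios scaling kept 451, voom 452, GC correction 433 and length correction 442, and the 6 libraries alone 455. Same-numbered D11 and WB1 libraries had correlated deviations of -0.12, 0.14 and -0.28, so the numbers were not treated as pairs, and a fit with a replicate block gave 309 higher and 140 lower genes and left DICER1 without a call. With the block and GC correction the counts were 318 and 134. The DICER1 log2 difference ranged from -0.29 to -0.19 over 23 alternatives and passed in 0 of them. Of 113 called genes chosen by rule, 39 were lost with a pseudocount of 4, which shrinks genes with few reads by construction, and PLAU and CLIC4 were lost after GC correction. Depth limits the comparison to genes above about 3 reads per library, and 1 clone per deletion limits what the difference can be assigned to.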
